A study of Mus musculus with 10 samples.

Results

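The antioxidant genes followed here were Gclc, Gclm, Gss, Gsr, Gpx1, Gpx4, Slc7a11, Txn1, Txnrd1 and Nqo1, which supply and use glutathione and thioredoxin. They were chosen by name, with no threshold on any value. They made up 10 of the 51717 genes with summed reads and 10 of the 12381 genes tested, so that all 10 passed the filter on low counts. RNA-seq had been performed on CD45.2+ granulocyte-macrophage progenitors (GMPs), the bone marrow progenitors committed to granulocytes and monocytes. The cells were sorted from irradiated mice reconstituted with donor marrow, after enrichment for CD27, a surface receptor of progenitors. In the paper's mixed Mpc2 chimeras, CD45.2+ donor marrow was combined with WT competitor marrow that lacked this marker. The sort for CD45.2+ thus took the donor cells. The comparison asked which transcripts differed just after deletion of Mpc2, a subunit of the carrier that brings pyruvate into mitochondria.

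The 5 WT samples carried ROSA26 CreER+/-, and the 5 recent Mpc2 KO samples carried Mpc2fl/fl; ROSA26 CreER+/-. Both groups were male mice of strain C57Bl6/N, received tamoxifen in the chow and were sampled after 2 wk of it, so that the controls carried the same recombinase and the same drug. CreER was expressed constitutively from ROSA26, and deletion in the donor cells was therefore not limited to GMPs. Each WT library represented 1 mouse. Each KO library was made from the combined cells of 2 mice, and the spread among KO samples was thus already an average over mice. In bulk samples of this kind, fewer cells of a type and less RNA per cell cannot be told apart.

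Glutathione is a tripeptide made from cysteine, glutamate and glycine, and it is kept reduced by an enzyme that consumes NADPH. Glutathione peroxidases use it to reduce peroxides, whereas thioredoxin and its reductase form a parallel NADPH-dependent system that reduces protein disulfides and peroxiredoxins. Several genes of both systems are known targets of NRF2, a transcription factor that is released from KEAP1 when cells meet oxidants or electrophiles. GMPs already fill granules with myeloperoxidase, and their neutrophil progeny produce oxidants to kill microbes.

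3 of the 10 genes, Gpx1, Gpx4 and Txnrd1, encode selenoproteins, in which a TGA codon that would otherwise stop translation is read as selenocysteine in the active site. The stretches around that codon are shown because these transcripts depend on decoding machinery whose genes were also measured. They were copied from the GENCODE M21 transcripts (GRCm38), 5′ to 3′, with the selenocysteine codon in capitals.
Gpx1-201: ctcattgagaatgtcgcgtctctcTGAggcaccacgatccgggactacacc
Gpx4-202: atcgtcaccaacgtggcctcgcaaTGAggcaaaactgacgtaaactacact
Txnrd1-206: ggagacatcctccagtctggctgcTGAggt
The codon lay at chr9:108339451-108339453 in Gpx1, at chr10:80054737-80054739 in Gpx4 and at chr10:82896037-82896039 in Txnrd1, all on the plus strand. It was codon 47 of 201 in Gpx1-201 and codon 73 of 197 in Gpx4-202, well inside the reading frame. In Txnrd1-206 it was codon 498 of 499, next to the last residue of the enzyme. The other 7 genes had no annotated selenocysteine codon.

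NRF2 with its MAF partners binds an antioxidant response element, whose core was searched as TGACNNNGC on both strands of RefSeq promoter windows (GRCm38.p6) that run from 250 bases before to 50 bases after a gene's start. Of the 8 genes with a window, 2 held a match, Gclm and Txnrd1, against 13.99% of all 27025 genes with a window. Both stretches are shown on the strand of the gene, 5′ to 3′, with the match in capitals, and in both the core read on the other strand.
Gclm promoter: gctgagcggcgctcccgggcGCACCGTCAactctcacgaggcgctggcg
Txnrd1 promoter: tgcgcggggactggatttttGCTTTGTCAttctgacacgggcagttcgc
The first lay at chr3:122245403-122245451 with the match centred at -130 from the start of Gclm. The second lay at chr10:82859094-82859142 with the match centred at -88 from 1 of the starts of Txnrd1. Gclc and Gsr had no window.

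The order of the genes was read from TPM, a unit corrected for transcript length in which levels can be set side by side between genes. Gpx1, the cytosolic glutathione peroxidase, stood far above the rest, with 10504 ± 488 TPM in WT (SD, n = 5) and 8862 ± 438 TPM in the recent KO (SD, n = 5). It ranked 8 among all genes tested by mean TPM in WT. Gpx4, which reduces lipid hydroperoxides within membranes, and Txn1, cytosolic thioredoxin, followed at 724 ± 75.3 and 624 ± 20.3 TPM in WT. The WT ranges of Gpx4 and Txn1 overlapped, as did their KO ranges, so those neighbours were not separated. Gsr, which regenerates reduced glutathione, came next at 135 ± 10.3 TPM in WT.

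Below these stood Gclm at 66.8 ± 19.6 TPM, Txnrd1 at 18.4 ± 1.82 TPM, Gss at 11.9 ± 1.43 TPM and Gclc at 6.55 ± 1.09 TPM in WT. The mRNA of the modifier subunit of glutamate-cysteine ligase was thus far more abundant per length than that of the catalytic subunit. The ratio of Gclm to Gclc in TPM was 7.83 to 15.6 in WT and 7.99 to 12.2 in the recent KO. Levels of the subunit proteins were not measured here. Nqo1, a quinone reductase often used as a readout of NRF2, was at 0.982 ± 0.228 TPM. Slc7a11, the cystine carrier of system xc-, was lowest at 0.610 ± 0.190 TPM in WT and 0.331 ± 0.125 TPM in the recent KO. The WT ranges of Nqo1 and Slc7a11 overlapped and their KO ranges did not. The KO ranges of Txnrd1 and Gss also overlapped, and the order of the 10 means was the same in both groups.

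**Figure D1:**
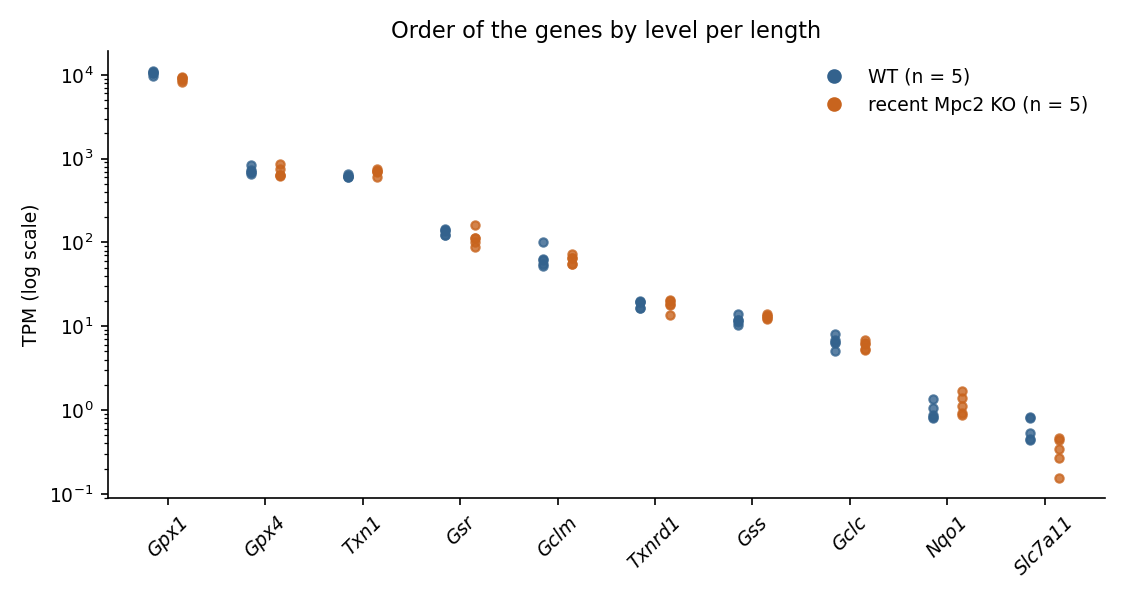
TPM of each gene (log axis) in the 5 WT samples (blue) and the 5 recent Mpc2 KO samples (orange), with 1 point per sample and genes ordered by their WT mean. Gpx1 lies more than an order of magnitude above Gpx4 and Txn1, except in KO replicate 2, where it is 9.69 times Gpx4. Nqo1 and Slc7a11 lie lowest.

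Differences between the groups were tested on estimated reads summed per gene, and per-sample levels below are CPM after TMM normalization. Mpc2 itself was at 61.0, 111, 95.2, 117 and 60.9 CPM in WT replicates 1 to 5 and at 27.7, 17.1, 43.9, 37.0 and 35 CPM in recent KO replicates 1 to 5. All KO samples were below all WT samples (log2 fold change -1.46 ± 0.24 SE, edgeR adjusted p = 0.0156). The floxed part is exon 3, and reads of the other exons of Mpc2 still count.

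None of the 10 antioxidant genes passed an adjusted p of 0.05 by edgeR's quasi-likelihood test, where 0.331% of all genes tested did (41 of 12381). At an unadjusted p under 0.05 there was 1 of 10, Gpx1, beside 10.2% of all genes. DESeq2 called 1 of 10, again Gpx1, where it called 1.09% of 14360 genes, and limma on log2(TPM + 1) called 0. 7 of the 10 fitted fold changes were below 0, beside 50.4% of all genes, and their median was -0.13 on the log2 scale beside -0.0018 over all genes tested. For 8 of the 10 genes the 95% interval of the fold change lay within 1.5-fold in either direction, and for 9 of 10 within 2-fold.

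**Figure D2:**
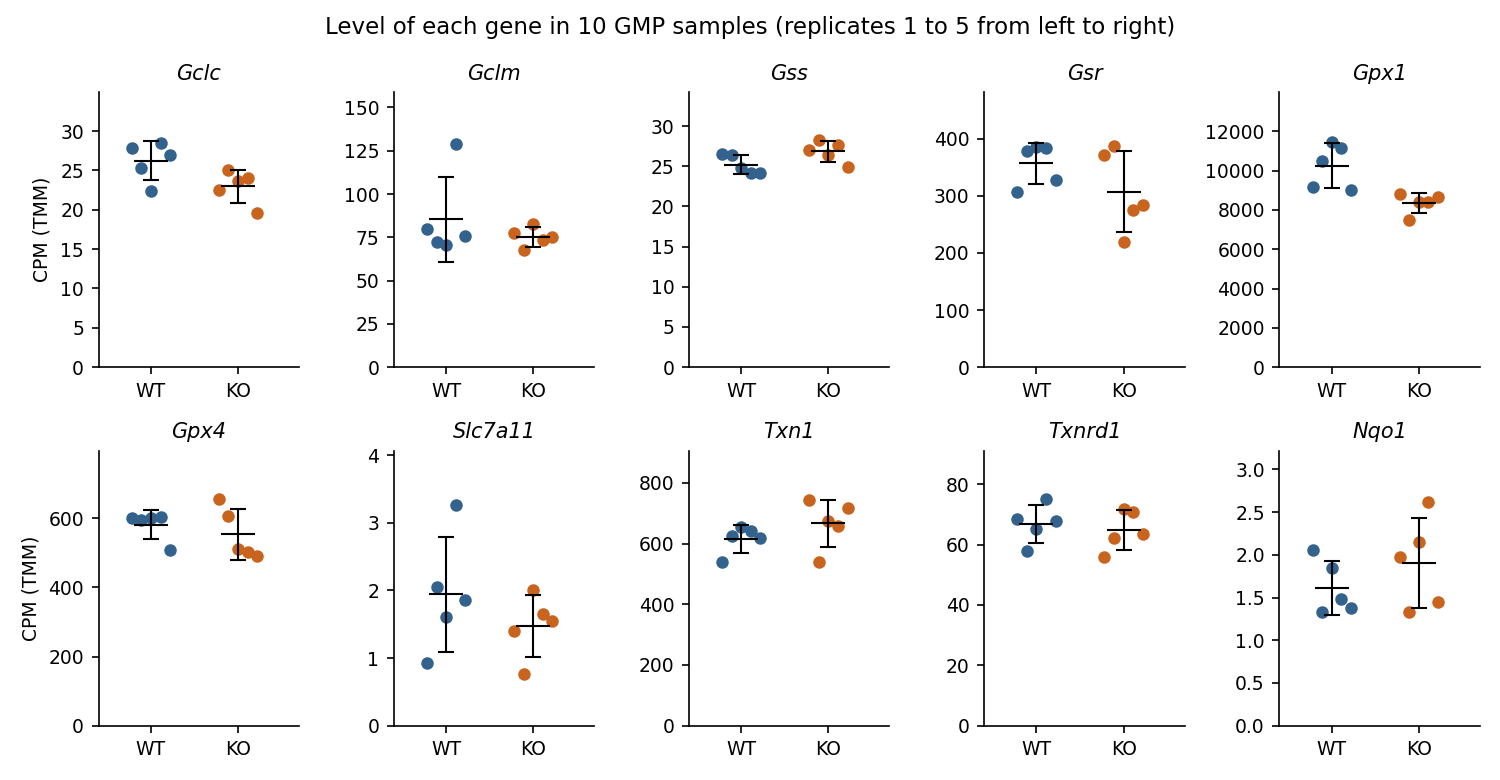
CPM of each gene in each sample (linear axes from 0, replicates 1 to 5 from left to right within a group), with the mean as a bar and the SD as error bars. Gpx1 is the gene whose 5 recent KO samples all lie below the 5 WT samples, and in Gclm WT replicate 4 stands at 129 CPM above the rest.

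Among the peroxidases, Gpx1 (ENSMUSG00000063856, chr9:108338903-108340343, plus strand) was at 9166, 10487, 11465, 11167 and 9009 CPM in WT replicates 1 to 5. In recent KO replicates 1 to 5 it was at 8790.3, 7469.6, 8425, 8403 and 8633 CPM. Every KO sample was lower than every WT sample, a separation in this direction seen in 1.32% of all genes tested. The gap was narrow, however, as the lowest WT sample, replicate 5, stood at 9009 CPM and the highest KO sample, replicate 1, at 8790.3 CPM. The fitted level in the recent KO was 0.813 times that in WT (95% interval 0.696 to 0.951, log2 fold change -0.30 ± 0.11 SE). The edgeR adjusted p was 0.331, and the DESeq2 adjusted p was 0.0331. Across the other 11 alternatives and the 10 fits that left out a sample, the adjusted p of Gpx1 ran from 0.187 to 0.587, while the fold change stayed below 0.

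Gpx4 (ENSMUSG00000075706, chr10:80047166-80056439, plus strand) was at 599.97, 594, 602, 604 and 507 CPM in WT and at 655, 608, 511, 503 and 491 CPM in the recent KO. The WT samples were tight apart from replicate 5, and in the KO replicates 1 and 2 were as high as WT whereas replicates 3 to 5 were near WT replicate 5. The groups overlapped (log2 fold change -0.07 ± 0.09 SE, edgeR adjusted p = 0.853), and the 95% interval of the fold change was 0.835 to 1.09. The ratio of Gpx1 to Gpx4 in TPM was 12.3 to 15.9 in WT and 9.69 to 14.8 in the recent KO (exact permutation p = 0.175, two-sided). This was 1 of 4 ratios tested, which also included Gclm to Gclc (exact permutation p = 0.738), Txn1 to Txnrd1 (exact permutation p = 0.214) and Gsr to Gss (exact permutation p = 0.0556). With 5 against 5 samples the smallest p this test can give is 0.00794.

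Gsr (ENSMUSG00000031584, chr8:33652523-33698163, plus strand) was at 307, 377, 385, 384 and 328 CPM in WT. In the recent KO it was at 372, 388, 218, 275 and 284 CPM. KO replicates 1 and 2 thus lay within or above the WT range and replicates 3 to 5 below all WT samples. The fitted fold change was 0.862 (95% interval 0.706 to 1.05, edgeR adjusted p = 0.633), and without recent KO replicate 3 the log2 fold change moved from -0.21 to -0.11.

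Markers of the sorted cells differed among the same samples. The 14 GMP markers, among them Mpo, Elane, Prtn3 and Ctsg of the primary granules, were all detected. They summed to 88105 to 123949 CPM in WT and to 80747, 90122, 52155, 68451 and 73081 CPM in recent KO replicates 1 to 5. None of the 14 passed the adjusted threshold by edgeR, and DESeq2 called 2, where it called 1.09% of all genes. At an unadjusted p under 0.05, 8 were lower, beside 5.35% of all genes tested. Of the 14 fitted fold changes, 10 were below 0 and 4 above. The sums rested mainly on granule genes, with Mpo alone at 31826 CPM in KO replicate 3. Cd34 on the same list was at 362, 309 and 298 CPM in KO replicates 3 to 5, beside 165 to 291 CPM in WT. Kit and Cd27 were also highest of all samples in KO replicate 3, at 47.7 and 104 CPM. Fcgr3 on that list went the other way, at 357 to 456 CPM in WT and 153 to 318 CPM in the recent KO (edgeR adjusted p = 0.107). Its KO samples all lay below WT, which 1.32% of all genes tested did. Fcgr2b and Csf2ra, like Fcgr3, were lowest of all samples in KO replicate 3, at 83.5 and 47.2 CPM. The 13 erythroid markers summed to 51.9 to 97.4 CPM in WT, to 75.9 and 73.5 CPM in KO replicates 1 and 2, and to 310.3, 238 and 209 CPM in KO replicates 3 to 5. The 3 KO samples with low Gsr and low Gpx4 were therefore those with the lowest GMP sums and the highest erythroid sums. Gpx1 was lowest in KO replicate 2, whose GMP sum lay inside the WT range, and the WT samples with the lowest GMP sums, replicates 1 and 5, also had the lowest WT levels of Gpx1. The part of these markers in the levels of Gpx1, Gsr and Gpx4 was not tested.

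**Figure D3:**
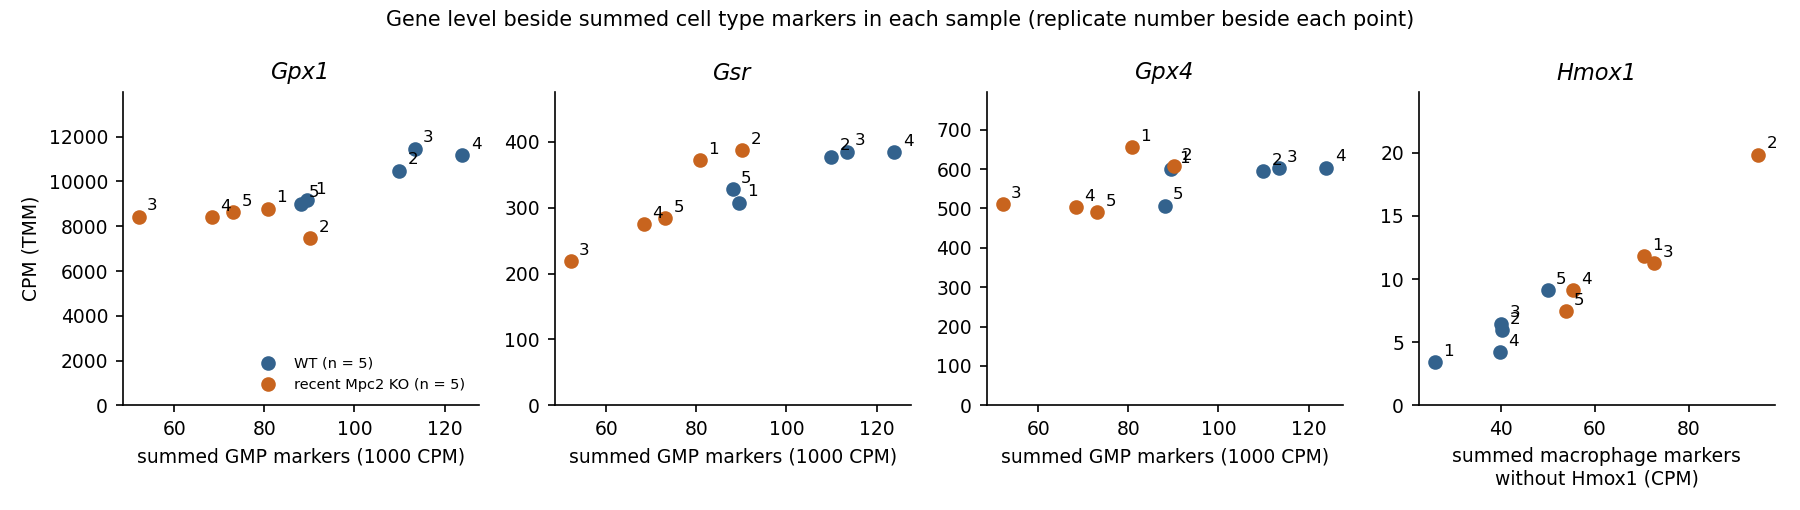
CPM of Gpx1, Gsr and Gpx4 against the summed CPM of 14 GMP markers, and CPM of Hmox1 against the summed CPM of the other macrophage markers, with 1 point per sample and its replicate number. KO replicates 3 to 5 have the lowest GMP sums together with low Gsr and Gpx4, Gpx1 in KO replicate 2 lies lowest at a GMP sum inside the WT range, and Hmox1 is highest in KO replicate 2, the sample with the highest macrophage sum.

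For glutathione synthesis, Gclc (ENSMUSG00000032350, chr9:77754535-77794485, plus strand) encodes the catalytic subunit of the rate-limiting ligase. It was at 27.9, 25.3, 22.3, 28.5 and 27 CPM in WT and at 22.5, 25.1, 23.6, 24.05 and 19.6 CPM in the recent KO. 4 of the 5 WT samples lay above all KO samples, and WT replicate 3 fell among the KO values. The fold change was 0.877 (95% interval 0.768 to 1.00, edgeR adjusted p = 0.490).

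Gclm (ENSMUSG00000028124, chr3:122245557-122270732, plus strand) was at 79.7, 72.2, 70.6, 129 and 75.7 CPM in WT and at 77.2, 67.4, 82.8, 73.4 and 75.1 CPM in the recent KO. WT replicate 4 alone set the WT mean above the KO mean. With all samples the log2 fold change was -0.18 ± 0.14 SE (edgeR adjusted p = 0.740), and without WT replicate 4 it was 0.01. The same WT sample was the highest of all 10 for Gclc, Slc7a11 and Txnrd1 too, so that 4 of the 10 genes peaked there, beside 13.5% of all genes tested. Exons of Gclm share 296 bases with Gm17494 on the opposite strand, which held 14104 estimated reads over all samples beside 13463 of Gclm. Where strand is not recorded, such reads cannot be told apart. Gm17494 was at 102 CPM in WT replicate 4 and 97.3 CPM in WT replicate 3, beside 87.9 ± 13.03 CPM in WT (SD, n = 5). The transcript Gclm-202, on average 5.63% of Gclm reads in WT, also shares 287 bases with Ppia at 97.91% identity. It shares 244 bases with the pseudogene Gm10123 at 100% identity. The part of these genes in the level of Gclm was not tested.

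Gss (ENSMUSG00000027610, chr2:155563181-155592810, minus strand), which adds glycine in the final step, was among the steadiest. It was at 26.5, 26.3, 24.8, 24.2 and 24.2 CPM in WT and at 27.1, 28.3, 26.4, 27.7 and 24.9 CPM in the recent KO. Its fold change was 1.07 (95% interval 0.965 to 1.18, edgeR adjusted p = 0.706), and its coefficient of variation was 4.59% among WT and 4.90% among KO samples. It shares exon bases with Acss2 on the opposite strand, which held 649 estimated reads over all samples beside 4418 of Gss.

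Slc7a11 (ENSMUSG00000027737, chr3:49892526-50443614, minus strand) rested on 11 to 42 estimated reads per sample. It was at 0.930, 2.05, 1.60, 3.26 and 1.86 CPM in WT and at 1.41, 0.769, 2.00, 1.64 and 1.55 CPM in the recent KO, with overlapping groups. The fold change was 0.778, and its 95% interval of 0.473 to 1.28 was the widest of the 10 genes on the log2 scale (edgeR adjusted p = 0.794). With an offset for transcript length the log2 fold change moved from -0.36 to -0.92 without passing the threshold (edgeR adjusted p = 0.401). The retained-intron transcripts Slc7a11-202 and Slc7a11-204 held on average 24.4% and 40.1% of its reads in WT and 14.9% and 28.8% in the recent KO. The coding transcript Slc7a11-201 held 25.9 ± 16.5% in WT and 44.3 ± 15.9% in the recent KO (SD, n = 5 each). A large part of the level and fold change of Slc7a11 was thus read from transcripts annotated as non-coding, and with 285 reads over all samples these shares were not tested.

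In the thioredoxin system, Txn1 (ENSMUSG00000028367, chr4:57943373-57956411, minus strand) was at 538, 624, 655, 642 and 619.8 CPM in WT and at 743, 539, 676, 657 and 717 CPM in the recent KO. 4 of the 5 KO samples lay above all WT samples, and KO replicate 2 lay near the lowest WT sample. The fold change was 1.08 (95% interval 0.951 to 1.23, edgeR adjusted p = 0.727), and without recent KO replicate 2 the log2 fold change was 0.18 (edgeR adjusted p = 0.291). Txnrd1 (ENSMUSG00000020250, chr10:82833951-82897712, plus strand) was at 68.4, 57.7, 65.3, 75.0 and 67.8 CPM in WT and at 55.8, 62.1, 71.6, 70.9 and 63.4 CPM in the recent KO. Its fold change of 0.970 (95% interval 0.855 to 1.10, edgeR adjusted p = 0.908) was the closest to 1 of the 10 genes.

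Nqo1 (ENSMUSG00000003849, chr8:107388225-107403206, minus strand) rested on 19 to 44 estimated reads per sample. It was at 2.06, 1.33, 1.84, 1.48 and 1.38 CPM in WT and at 1.97, 1.33, 2.15, 2.62 and 1.44 CPM in the recent KO. KO replicate 4 was highest, and the lowest values of the groups were nearly the same. The fold change was 1.17 (95% interval 0.805 to 1.71, edgeR adjusted p = 0.832).

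**Figure D4:**
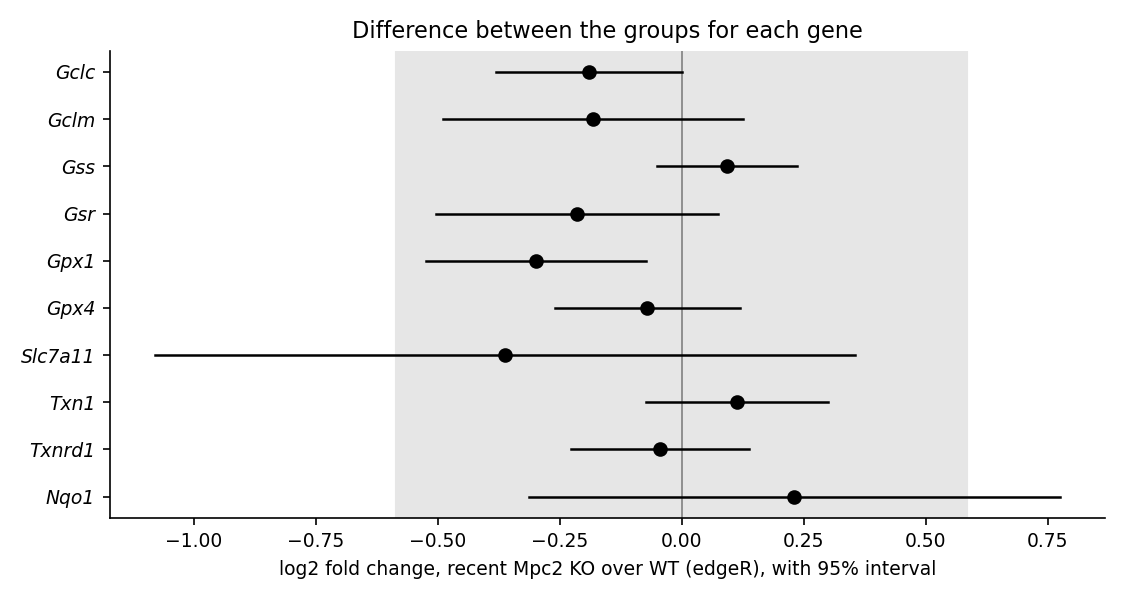
Fitted log2 fold change of each gene (recent Mpc2 KO over WT, edgeR) as a point with its 95% interval as a line, and a grey band for 1.5-fold in either direction. Gpx1 is the gene whose interval excludes 0 before adjustment over all genes, and the intervals of Slc7a11 and Nqo1 are the ones that leave the band.

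Several of these genes are read from more than 1 transcript, and Salmon's division of reads among them was compared as a percent of the gene's estimated reads. 11 transcripts of Gclm, Gss, Gpx4 and Txnrd1 with a mean share of at least 5% were tested, and those of Slc7a11 were left out for their few reads. Txnrd1-208 held 18.8%, 24.7%, 17.1%, 24.6% and 16.8% of Txnrd1 reads in WT replicates 1 to 5 and 8.04%, 15.96%, 16.9%, 17.0% and 15.9% in the recent KO. The ranges overlapped slightly (difference -5.64 percentage points, exact permutation p = 0.0317 before adjustment over 11 tests). The exact permutation p of the other 10 transcripts lay between 0.0714 and 0.992. Gpx4-202 held 83.7% to 89.0% of Gpx4 reads in WT and 83.6% to 92.2% in the recent KO, and Gpx4-207 most of the remainder. The share of Gss-203 jumped between 0% and 46.7% among WT samples, which leaves its division from Gss-201 unsettled. Gclc, Gsr, Gpx1, Txn1 and Nqo1 were each read almost wholly from 1 transcript.

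The other genes of these pathways were read from 12 lists that together held 188 further genes, of which 151 were tested. None passed the adjusted threshold by edgeR or by limma on log2(TPM + 1), and DESeq2 called 2, Hmox1 and Nnt. At an unadjusted p under 0.05, 14 were higher and 9 lower, together 15.2%. Over all genes 4.89% were higher and 5.35% lower at that level. The median log2 fold change of the 151 genes was 0.0064, beside -0.0018 over all genes tested. The lists share genes with each other and with the 10 genes above, and counts below include both.

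Around glutathione itself, the list for synthesis and breakdown had 11 of 18 genes tested and 1 higher at an unadjusted p under 0.05. This was Ggct, which breaks down gamma-glutamyl dipeptides, at 22.6 ± 1.27 CPM in WT and 25.6 ± 2.42 CPM in the recent KO (SD, n = 5 each, edgeR adjusted p = 0.460). Of the cystine and cysteine supply list, 8 of 13 genes were tested and 1 was higher at that level, Ahcy of the methionine cycle (132 ± 4.85 against 149 ± 16.1 CPM, edgeR adjusted p = 0.428). The glutathione peroxidases had 4 of 8 genes tested and Gpx1 as the 1 lower gene.

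Of the glutathione transferases and glutaredoxins, 26 of 35 genes were tested, with 3 higher and 1 lower at an unadjusted p under 0.05. Gsta4, which conjugates 4-hydroxynonenal from lipid peroxides, was at 4.33 ± 1.10 CPM in WT and 6.84 ± 0.965 CPM in the recent KO (log2 fold change 0.65 ± 0.18 SE, edgeR adjusted p = 0.206). Hpgds, a prostaglandin D synthase of the transferase family, was at 0.798 ± 0.289 and 1.42 ± 0.458 CPM (edgeR adjusted p = 0.416).

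The thioredoxin system had 27 of 28 genes tested, with 2 higher and 1 lower. The peroxiredoxins reduce peroxides at the expense of thioredoxin. Prdx1, the cytosolic form, was at 965, 1031, 1043, 1016 and 993 CPM in WT and at 1177, 1043, 1188, 1192 and 1101 CPM in the recent KO. The KO samples all lay above WT, which 1.11% of all genes tested did, although KO replicate 2 exceeded the highest WT sample by less than 1 CPM (log2 fold change 0.18 ± 0.06 SE, edgeR adjusted p = 0.341). Prdx3, the mitochondrial form, was at 145 ± 5.63 CPM in WT and 160.2 ± 9.07 CPM in the recent KO (edgeR adjusted p = 0.371). Of the superoxide dismutases and catalase, 4 of 5 genes were tested and Sod1, the cytosolic dismutase, was the 1 higher gene (77.0 ± 7.98 against 89.5 ± 7.86 CPM, edgeR adjusted p = 0.371).

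The 14 regulators of the NRF2 pathway were all tested, and Cul3, the scaffold of the ligase that degrades NRF2 with KEAP1, was the 1 higher gene. It was at 42.7 ± 2.50 CPM in WT and 47.3 ± 1.35 CPM in the recent KO (edgeR adjusted p = 0.446). All KO samples lay above all WT samples, which 1.11% of all genes tested did. The gap was narrow, with the lowest KO sample at 44.9 CPM and the highest WT sample at 44.5 CPM. Of the NRF2 targets, 32 of 34 were tested, 3 were higher and 3 lower at an unadjusted p under 0.05, and the median log2 fold change of those tested was -0.0095. The higher genes were Hmox1, Gsta4 and Prdx1. Pgd, also on the list of NADPH suppliers, was among the lower genes. It was at 228 ± 27.6 CPM in WT and 188 ± 37.8 CPM in the recent KO (SD, n = 5 each, edgeR adjusted p = 0.452).

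The NRF2 target with the smallest p was Hmox1, heme oxygenase 1. It was at 3.43, 5.93, 6.47, 4.20 and 9.10 CPM in WT and at 11.8, 19.9, 11.2, 9.13 and 7.47 CPM in the recent KO. Only WT replicate 5 overlapped with the KO, above KO replicate 5 (log2 fold change 1.02 ± 0.28 SE, edgeR adjusted p = 0.199, DESeq2 adjusted p = 0.0202). Hmox1 is also a marker of marrow macrophages, which clear red cells. The other macrophage markers summed to 26.0 to 49.99 CPM in WT and to 53.8 to 94.7 CPM in the recent KO, with no overlap, and the sample with the highest sum, KO replicate 2, had the highest Hmox1. Of 13 macrophage markers tested, 8 were higher at an unadjusted p under 0.05, Hmox1 included, beside 4.89% of all genes tested. The complement genes C1qa, C1qb and C1qc, 3 of the 13, rose past the adjusted threshold, which 0.331% of all genes passed in either direction. The fold change was above 0 for 12 of the 13. Adgre1 was the 1 below 0, at 3.02 ± 0.663 CPM in WT and 2.29 ± 0.449 CPM in the recent KO. Cd163 was nearly level, at 2.63 ± 0.848 and 2.69 ± 0.141 CPM (SD, n = 5 each). The part of macrophage RNA in the level of Hmox1 was not tested.

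**Figure D5:**
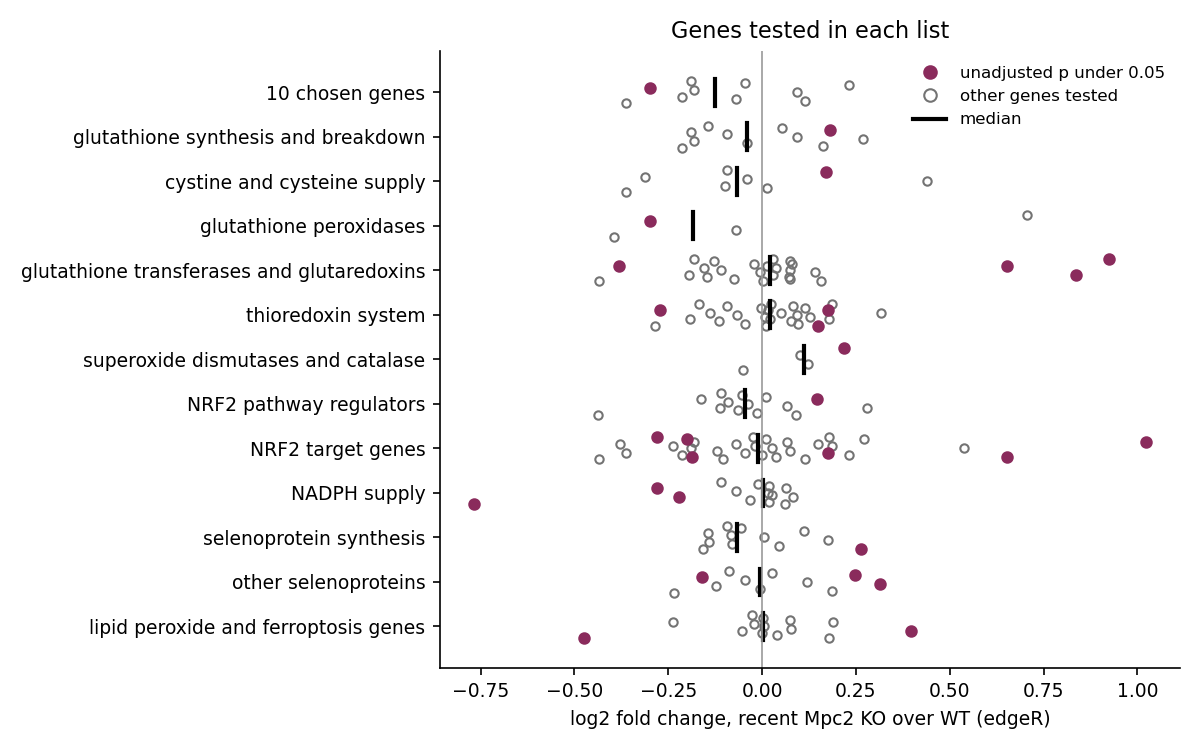
Log2 fold change (recent Mpc2 KO over WT, edgeR) of every gene tested in each list, with filled points for an unadjusted p under 0.05 and a black bar for the median. The medians lie between -0.18 and 0.11, the point farthest right is Hmox1 at 1.02 and the point farthest left is 1 of the identifiers of Nnt at -0.77.

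Of the NADPH suppliers, 14 of 17 were tested and 3 were lower at an unadjusted p under 0.05. Idh1, the cytosolic isocitrate dehydrogenase, was at 185 ± 16.9 CPM in WT and 158 ± 20.2 CPM in the recent KO (edgeR adjusted p = 0.416). Nnt, the transhydrogenase of the inner mitochondrial membrane, is annotated under a pair of overlapping identifiers that share 3339 exon bases, and Salmon divided its reads between them. The main identifier was at 24.8 ± 4.46 CPM in WT and 14.6 ± 5.94 CPM in the recent KO (log2 fold change -0.77 ± 0.23 SE, edgeR adjusted p = 0.223, DESeq2 adjusted p = 0.0407). With both identifiers summed, Nnt was at 28.0, 26.5, 31.1, 24.02 and 27.8 CPM in WT and at 25.6, 28.3, 22.6, 27.6 and 23.9 CPM in the recent KO (log2 ratio of means -0.10, exact permutation p = 0.254). The fold change of the single identifier is therefore reported as uncertain.

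The machinery that makes selenoproteins had all 12 genes tested and 1 higher, Pstk, the kinase that prepares the selenocysteine tRNA. It was at 24.2 ± 2.57 CPM in WT and 29.1 ± 1.23 CPM in the recent KO (edgeR adjusted p = 0.240), and its exons share 4652 bases with Ikzf5 on the opposite strand. Of the other selenoproteins, 11 of 14 were tested, with 2 higher and 1 lower. Selenow was at 62.3 ± 8.75 and 77.6 ± 12.8 CPM (edgeR adjusted p = 0.397). Selenos, of the degradation pathway of the endoplasmic reticulum, was at 238 ± 14.2 and 213 ± 15.7 CPM (edgeR adjusted p = 0.415).

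Of the genes of lipid peroxidation and ferroptosis, 14 of 17 were tested, with 1 higher and 1 lower. Gch1, which makes the antioxidant cofactor tetrahydrobiopterin, was at 11.1 ± 1.45 CPM in WT and 14.6 ± 3.65 CPM in the recent KO (edgeR adjusted p = 0.408). Tfrc, the transferrin receptor that imports iron, was at 19.5, 28.1, 25.9, 49.9 and 25.8 CPM in WT and at 20.7 to 22.2 CPM in the recent KO (edgeR adjusted p = 0.412). WT replicate 4 was again the high sample.

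Markers of the remaining cell types were counted in the same fit. Late neutrophil genes had 10 of 11 tested with 6 higher at an unadjusted p under 0.05, erythroid genes 9 of 13 with 6 higher, megakaryocyte genes 3 of 8 with 3 higher, and stem cell genes 8 of 8 with 3 higher. Monocyte genes had 10 of 10 tested with 5 lower, and genes of basophils, mast cells and eosinophils 9 of 9 with 2 higher and 3 lower. B cell genes had 2 of 8 tested and T and NK cell genes 2 of 9, with 0 at that level in either list. Over all genes tested, 4.89% were higher and 5.35% lower at that level. None of these lists held a gene past the adjusted threshold by edgeR or by limma. DESeq2 called 1 gene each in the megakaryocyte, stem cell, monocyte and basophil lists, where it called 1.09% of all genes.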

How the data were processed

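RNA-seq libraries were made by the authors with the SMARTseq V4 kit from sorted GMPs and sequenced as paired-end reads of 150 bp. Transcripts of GENCODE M27 were quantified with Salmon (version 1.5.1 per the labels). The deposited values were estimated counts per transcript, which are not normalized, and TPM, scaled to length. The authors' table of their own DESeq2 comparison (mean, log2 fold change, error, statistic, p and adjusted p) was not used.

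Transcripts were matched to GENCODE M21 (GRCm38) by identifier without version. 137161 of 140789 matched (97.42%), and unmatched transcripts held 0.348% to 0.390% of reads. Reads of each gene's transcripts were added and rounded, giving 14033776 to 19745405 per sample. The kit adds no molecular identifiers, so read numbers overstate the molecules counted. Replicates differed by more than sampling noise (chi-square per gene 6.31 to 41.7), and no pair was identical. The labels name no batch.

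edgeR 4.0.16 (R 4.3.3) was run with TMM, filterByExpr (minimum count 10), quasi-likelihood tests and Benjamini-Hochberg adjustment over all genes at 0.05. Intervals used the moderated degrees of freedom. DESeq2 1.42.0 and limma 3.58.1, on log2(TPM + 1) or log2(TPM + 0.1) of genes with a mean of at least 1 TPM, were alternatives, with other scalings, filters, a transcript length offset, robust dispersions, a replicate block and leaving out each sample. Single ratios, shares and sums were tested by exact two-sided permutation. Scripts were tested on simulated data. Promoter windows came from RefSeq, and near-identical copies from BLAST 2.17.0 (95% identity over 25% of a transcript). The ratios, the sum of the Nnt identifiers and the alternatives for genes other than the 10 were added after seeing the data. All lists and genes were chosen with earlier results of these data known. Genes named from a list were those past the adjusted threshold or, with none, up to 2 with the smallest unadjusted p under 0.05. C1qa, C1qb, C1qc, Pgd and the other single markers of GMPs and macrophages were instead named after their values were seen.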

Additional observations from a re-analysis of the deposited data

Results flagged for a closer look

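Among 54 sets of 5 samples examined (27 genes in each group), 6 had a highest or lowest sample whose gap to the next exceeded Dixon's critical ratio of 0.71, where chance gives about 2.7. Gclm in WT replicate 4 was at 129 CPM beside 70.6 to 79.7 CPM in the other WT samples. Gpx4 in WT replicate 5 was at 507 CPM beside 594 to 604 CPM. Tfrc in WT replicate 4 was at 49.9 CPM beside 19.5 to 28.1 CPM, and Prdx3 in the same sample was at 154 CPM beside 140.4 to 143 CPM. Ahcy in WT replicate 3 was at 140.4 CPM beside 128 to 132 CPM. Cul3 in recent KO replicate 5 was at 44.9 CPM beside 47.5 to 48.5 CPM. 3 of the 6 flags fell on WT replicate 4.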

How the results depend on the processing

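Slc7a11 rested on 11 to 42 reads per sample and Nqo1 on 19 to 44, and the pools of 2 mice in the KO cannot be told apart from genotype in the spread. The number of the 10 genes past the threshold was 0 in every fit except DESeq2, where it was 1 (Gpx1, log2 fold change -0.29, adjusted p = 0.0331). Over all genes, 41 calls became 206 without the filter on low counts, 156 with DESeq2, 26 with limma on log2(TPM + 0.1) and 20 with the replicate block, and the cause was not tested. Leaving out 1 sample gave 25 to 91 calls over all genes, with 91 without recent KO replicate 2, and left 0 of the 10 genes past the threshold each time. Of the 188 other listed genes, 2 were called without the filter and with DESeq2, Hmox1 and Nnt, and 1, Nnt, without recent KO replicate 5. Mpc2 kept its direction in all fits, and lost its call with the length offset, robust dispersions, the replicate block, both limma fits and without recent KO replicate 1 (adjusted p up to 0.214).

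Same-numbered samples did not deviate together (correlations -0.174 to 0.037, 0 of 5 numbers best with their own), so the replicate block was only an alternative. In it, none of the 10 genes was called and none changed direction, with Gpx1 at -0.29 (adjusted p = 0.552).

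Txnrd1 turned to 0.030 on the log2 scale with library size only and to 0.032 by its most abundant transcript, and ran from -0.093 to 0.0036 when single samples were left out. Under library size only the median of all genes was 0.07. Gclm ran from -0.24 to 0.011 in the same way, above 0 without WT replicate 4. The other 8 genes kept their sign under every alternative fitted. Leaving out 1 sample, they ran from -0.24 to -0.14 for Gclc, 0.07 to 0.12 for Gss, -0.31 to -0.11 for Gsr, -0.34 to -0.26 for Gpx1, -0.14 to -0.03 for Gpx4, -0.55 to -0.11 for Slc7a11, 0.07 to 0.18 for Txn1 and 0.09 to 0.34 for Nqo1. Slc7a11 was too low for the limma fits, the minimum mean count of 50 and the transcript fit, and Nqo1 for the mean count.

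Transcript shares, in percentage points of KO minus WT when single samples were left out, ran from -0.840 to 0.748 for Gclm-206, -0.592 to 0.534 for Gclm-202, 1.10 to 2.42 for Gclm-203, -1.10 to 10.7 for Gss-201, -10.8 to 0.888 for Gss-203, -1.48 to 5.95 for Txnrd1-206 and -6.54 to -3.96 for Txnrd1-208. The exact permutation p then ran from 0.0159 to 0.0635 for Txnrd1-208 and from 0.0159, without recent KO replicate 2, to 0.143 for Gclm-203. With 1 sample left out, 0.0159 is the smallest p this test can give. It is reached once the sample left out removes the overlap of the groups, so it adds no support. By share of TPM Gclm-202 turned to -0.439. The 10 sums of Txn1 with its pseudogene ran from 0.069 to 0.18 on the log2 scale, with an exact permutation p of 0.0159 without recent KO replicate 2. That sample was the only KO sample to overlap WT, so this smallest possible p followed from leaving it out. The edgeR adjusted p of Txn1 without it was 0.291. The pseudogene of Txn1 held 0 reads, so the sums are the values of Txn1 alone. The sum of Gpx4 with its copies ran from -0.14 to -0.03.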
